A study of Mus musculus with 10 samples.

Results

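The 39 HOX cluster genes were described in 10 mouse pancreatic cancer cell lines. They are the genes of the table whose symbol is Hoxa, Hoxb, Hoxc or Hoxd followed by a number, out of 49568 genes in all: 11 in the HoxA cluster, 10 in HoxB, 9 in HoxC and 9 in HoxD. The study sequenced messenger RNA from 5 lines labelled KPCAf/f (A1693, A1809, A1925, A2441 and A3992) and 5 labelled KPC (A1081, A1620, A1625, A2031 and A2032). KPC names a widely used mouse model of pancreatic cancer, and the labels list no alleles, Cre driver or age. They do not spell out KPCAf/f either; Af/f is taken to mean floxed (conditional) alleles of Arid1a, which the title of the series names. Each line gave 1 library, and the labels do not tell if lines share a mouse of origin, so p-values measure the spread between these lines. Within a bulk library, fewer expressing cells and less RNA per cell cannot be told apart.

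HOX genes encode homeodomain transcription factors that set position along the head-to-tail axis of the embryo. Within a cluster they are ordered by paralog group: low-numbered members are expressed towards the head, high-numbered members towards the tail. In adult tissue the pattern often persists as a positional memory, which fibroblasts in particular keep in culture. Polycomb complexes hold silent clusters closed, while KMT2-type methyltransferases, CDX factors and retinoic acid receptors are known activators. PBX, MEIS and PKNOX proteins bind DNA together with HOX proteins.

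Gene-assigned reads per library lay between 15124888 (A2441) and 20419830 (A1809), and values are counts normalized for library size, at which 1 read is worth about 1 normalized count. Arid1a, a subunit of the SWI/SNF chromatin remodeller, was at 1465 ± 221 in KPCAf/f lines and 2114 ± 844 in KPC lines (SD, n = 5 each; limma adjusted p = 0.563), a gene-level count that includes exons outside a deleted part and so does not check the labels. A1693 stood apart by some markers, with 2.70 normalized counts of the pancreatic factor Pdx1 and 10.8 of E-cadherin (Cdh1). Pdx1 and Cdh1 thus do not show it to be pancreatic epithelium. Other epithelial markers were read in A1693. Krt8 (2466), Krt18 (2808) and Krt19 (608) were at their lowest of the 10 lines there, and Sox9 (945) at its highest. A1693 had 7 of the 10 epithelial markers at or above 10, against 9 or 10 in each other line. The 10 epithelial markers summed to 6872 to 134801 in KPCAf/f lines, lowest in A1693, and to 171395 to 368820 in KPC lines. The 10 fibroblast markers summed to 15599 to 96323 in KPCAf/f lines, highest in A1693, and to 65.0 to 189 in KPC lines, with 6 to 9 of the 10 at or above 10 in each KPCAf/f line and 1 to 3 in each KPC line. KPC line A1620 stood apart by transcript length. Its log2 level minus the all-line mean had a slope of -0.54 for each doubling of merged exon length across genes, while slopes were 0.08 to 0.16 in KPCAf/f lines and -0.02 to 0.03 in the other KPC lines. Summed reads of 4 Y-linked genes were 0 to 3 in KPCAf/f lines and 1148 to 3415 in KPC lines, so genotype and Y-linked expression cannot be told apart. The part of these differences in the HOX results was not tested. Many HOX results that rest on A1693 or A1620 are given with and without them. The differences of single genes of the related lists are given with all lines only.

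The bases just before the start site are shown for 4 HoxA genes that span the patterns described below: Hoxa2 and Hoxa5, highest in A1693, Hoxa11, with 0 reads in all 10 lines, and Hoxa13, highest in A1081. Each is 250 bases on the minus strand of chromosome 6, from RefSeq on GRCm38.p6, written 5′ to 3′ with CpG dinucleotides in capitals, at chr6:52164832-52165081 for Hoxa2, chr6:52204588-52204837 for Hoxa5, chr6:52245811-52246060 for Hoxa11 and chr6:52260881-52261130 for Hoxa13.
Hoxa2: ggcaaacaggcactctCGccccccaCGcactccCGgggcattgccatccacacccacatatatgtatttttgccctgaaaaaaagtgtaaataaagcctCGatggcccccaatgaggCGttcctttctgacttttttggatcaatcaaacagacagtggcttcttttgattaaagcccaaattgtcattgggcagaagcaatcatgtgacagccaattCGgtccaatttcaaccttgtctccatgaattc
Hoxa5: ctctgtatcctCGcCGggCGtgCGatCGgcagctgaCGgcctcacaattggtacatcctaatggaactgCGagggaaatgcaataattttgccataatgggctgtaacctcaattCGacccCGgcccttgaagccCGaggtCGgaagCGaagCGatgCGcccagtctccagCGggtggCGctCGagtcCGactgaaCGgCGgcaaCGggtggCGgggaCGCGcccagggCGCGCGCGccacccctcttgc
Hoxa11: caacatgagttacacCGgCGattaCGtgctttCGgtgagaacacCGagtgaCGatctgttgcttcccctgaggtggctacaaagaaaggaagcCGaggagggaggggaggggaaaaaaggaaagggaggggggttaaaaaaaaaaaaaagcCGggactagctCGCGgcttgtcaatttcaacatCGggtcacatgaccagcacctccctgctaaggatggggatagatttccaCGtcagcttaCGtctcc
Hoxa13: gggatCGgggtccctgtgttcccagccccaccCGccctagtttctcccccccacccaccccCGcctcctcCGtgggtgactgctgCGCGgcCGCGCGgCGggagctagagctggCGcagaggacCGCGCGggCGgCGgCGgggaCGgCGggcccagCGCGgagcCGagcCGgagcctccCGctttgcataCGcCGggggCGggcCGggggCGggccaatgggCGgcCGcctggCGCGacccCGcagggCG
These stretches hold 6 CpG dinucleotides for Hoxa2, 28 for Hoxa5, 13 for Hoxa11 and 35 for Hoxa13, so Hoxa2 and Hoxa5, both high in A1693, differed in number. In the 300-base window described below, Hoxa2 held 9, against a median of 7 over the windows of all genes.

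Of the 39 HOX genes, 18 (46.2%) reached a normalized count of 10 in any line, against 32.6% of all 49568 genes and 63.9% of the 21359 protein-coding genes in the table. They were 8 of 11 in HoxA, 8 of 10 in HoxB, 1 of 9 in HoxC and 1 of 9 in HoxD. A further 12 genes had reads but stayed below 10 in every line, and 9 had 0 reads in all 10 lines: Hoxa11, Hoxb1, Hoxc11, Hoxc12, Hoxd1, Hoxd3, Hoxd10, Hoxd12 and Hoxd13. Just inside the level of 10 lay Hoxd8 (11.5 at its highest) and Hoxb5 (11.9), and just outside it lay Hoxc9 (5.90) and Hoxc4 (5.73).

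Most of these genes reached 10 in few lines. Of the 18 genes, 12 (66.7%) reached 10 in exactly 1 line, 3 in 2 lines, 2 in 3 lines and 1 in 4 lines, and 0 reached it in 5 or more. Of all 16150 genes that reached 10 somewhere, 8.3% did so in exactly 1 line and 81.0% in 5 or more. A value of at least 10 in a KPCAf/f line was seen for 16 of the 18 and in a KPC line for 5. Of the 18, 13 reached it in KPCAf/f lines alone, 2 in KPC lines alone and 3 in both. The same split was not counted over all genes. Of the 18, the highest line was A1693 for 7 genes, A1809 for 6, A1620 for 3, and A1925 and A1081 for 1 gene each. Without A1693 and A1809, 7 HOX genes reached 10 in any line.

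**Figure D1:**
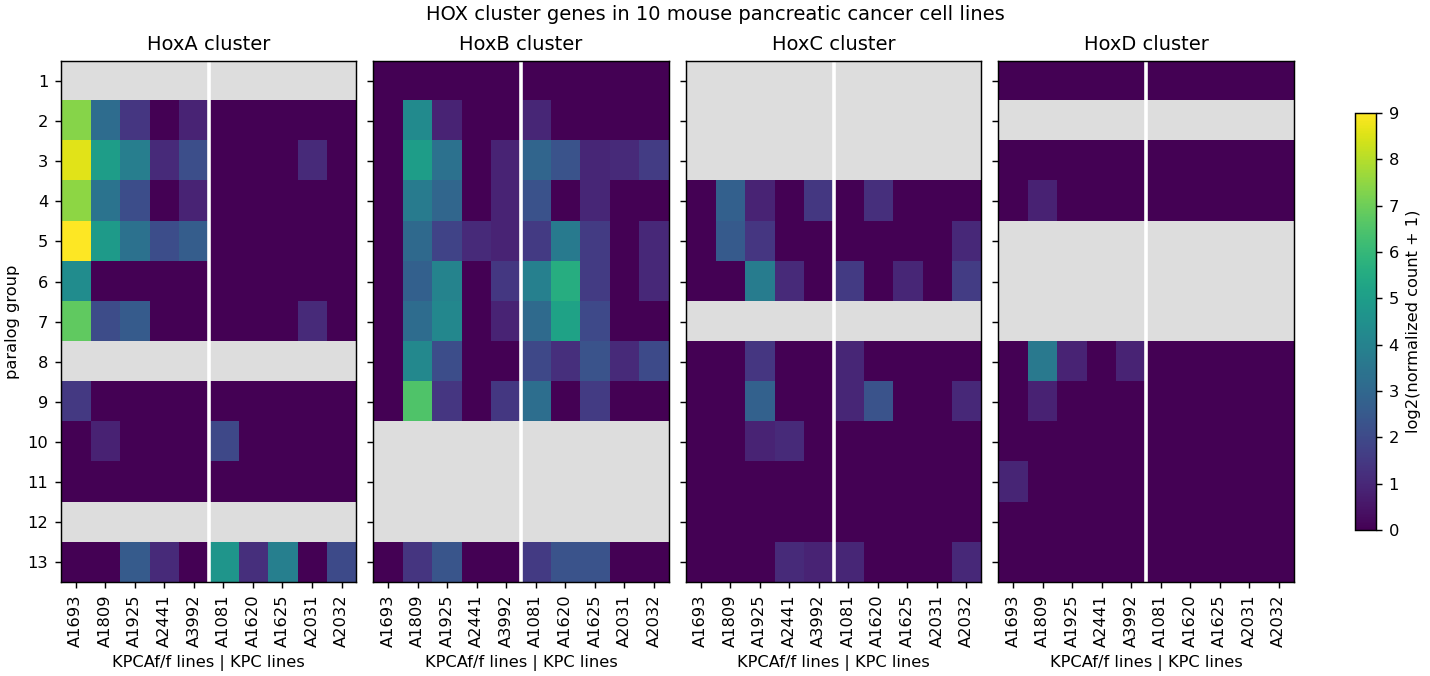
Each panel is a cluster, each row a paralog group and each column a cell line (KPCAf/f left of the white line, KPC right); colour is log2(normalized count + 1), and grey marks positions with no gene or none shown. The brightest block is Hoxa2 to Hoxa7 in A1693, where Hoxa5 reaches 510.4 normalized counts, and the HoxC and HoxD panels are dark in nearly every line.

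The HoxA cluster lies on chromosome 6 (GRCm38, GENCODE M21 annotation), with all 11 genes on the minus strand. In KPCAf/f line A1693 the neighbouring genes Hoxa2 to Hoxa7 all reached 10. HoxA made up 99.9% of the HOX total of this line, 1521. The 28 genes of the other clusters had 1 read in A1693, in Hoxd11, and HoxB had 0, which allows up to 2.70 normalized counts (3 reads). Limits of this kind cover counting error only. A1693 was also the line with the lowest epithelial and the highest fibroblast marker sum. It gave 65.9% of all 2566 reads in HOX genes and A1809 gave 16.8%.

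Hoxa5, which in mouse embryos patterns the lung, trachea and neck skeleton, had the most reads of any HOX gene. It had 510.4 normalized counts in A1693, 28.6 in A1809, 9.27 in A1925, 3.37 in A2441 and 5.29 in A3992, against 0 reads in all 5 KPC lines. All KPCAf/f lines therefore lay above all KPC lines, and A1693 was 17.8 times the next line. The KPCAf/f mean was 111 ± 223 (SD, n = 5), or 11.6 ± 11.6 without A1693 (n = 4). Against a floor of 3 reads over the KPC group, this is at least 175-fold higher in KPCAf/f lines, and at least 18.2-fold higher without A1693, with counting error alone considered.

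The log2 difference of Hoxa5 was 4.41 (two-sided exact permutation p = 0.00794, the smallest that the splits of 10 lines into 5 and 5 can give; n = 5 lines each). Genotypes that do not overlap always give this p, and Hoxa5 was chosen for the test by the same values, so the p adds no support. In limma over the 16150 genes with at least 10 in any line Hoxa5 did not pass (SE 1.11, adjusted p = 0.0730). Without A1693, a setting added after the values were seen, the difference was 3.26 (SE 0.62, limma adjusted p = 0.0247), which passed. Hoxa5 lies at 52201754 to 52204587, inside the annotated span of Hoxa3, so reads may be shared between them.

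Hoxa3, needed in the mouse for the thymus and parathyroid, had 388 normalized counts in A1693, 31.1 in A1809, 13.5 in A1925, 1.12 in A2441 and 3.52 in A3992, against 1.12 in A2031 and 0 in A1081, A1620, A1625 and A2032. Its annotated span, 52169062 to 52213336, overlaps Hoxa4, Hoxa5 and Hoxa6 on the same strand, so reads may be shared among them. The lines kept the order seen for Hoxa5 at the top, and the genotypes did not overlap by normalized value, although A2441 and A2031 each had 1 read. Its log2 difference was 3.93 (SE 1.17; exact permutation p = 0.00794, n = 5 lines each; limma adjusted p = 0.127). As for Hoxa5, the permutation p follows from the lack of overlap, by which the gene was chosen. The ratio of Hoxa3 reads was 415 (95% counting interval 74.2 to 16436), and 62.5 (10.8 to 2511) without A1693.

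Hoxa2, Hoxa4, Hoxa6 and Hoxa7 were chosen for description after their values were seen. Hoxa2, which patterns the facial skeleton, had 166 normalized counts in A1693, 8.18 in A1809, 1.69 in A1925, 0 in A2441 and 0.881 in A3992, and Hoxa4 had 176, 9.82, 3.37, 0 and 0.881 in the same lines, against 0 reads in every KPC line for both. Hoxa6 was read in A1693 alone, at 19.8. Hoxa7 had 110 in A1693, 3.27 in A1809, 5.06 in A1925 and 0 in A2441 and A3992, against 1.12 in A2031 and 0 in the other 4 KPC lines. A1693 was thus the highest line for each, at 20.2 times the next line for Hoxa2, 18 times for Hoxa4 and 21.7 times for Hoxa7. Without A1693, all 4 were below 10 in every line.

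Levels within the HoxA run were compared per kilobase of merged exons. In A1693 Hoxa5 was highest at 272 normalized counts per kb, followed by Hoxa4 at 111, Hoxa2 at 93.3, Hoxa3 at 64.5, Hoxa7 at 38.2 and Hoxa6 at 22.7. Beyond Hoxa7 the level per kb was 0.32 for Hoxa9 and 0 for Hoxa10, Hoxa11 and Hoxa13. The run therefore stopped between Hoxa7 and Hoxa9.

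Hoxa13, the last gene of the cluster, which acts in the hindgut, urogenital tract and digits, showed another pattern (chosen after its values were seen). It had 5.06 normalized counts in A1925, 1.12 in A2441 and 0 in A1693, A1809 and A3992, against 24.6 in A1081, 1.32 in A1620, 13.7 in A1625, 0 in A2031 and 3.09 in A2032. The genotypes overlapped, and A1081 and A1625 were the highest lines. The log2 difference was -1.62 (SE 0.93, limma adjusted p = 0.413), which did not pass. Hoxa9 and Hoxa10 stayed at or under 2.84 in every line.

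**Figure D2:**
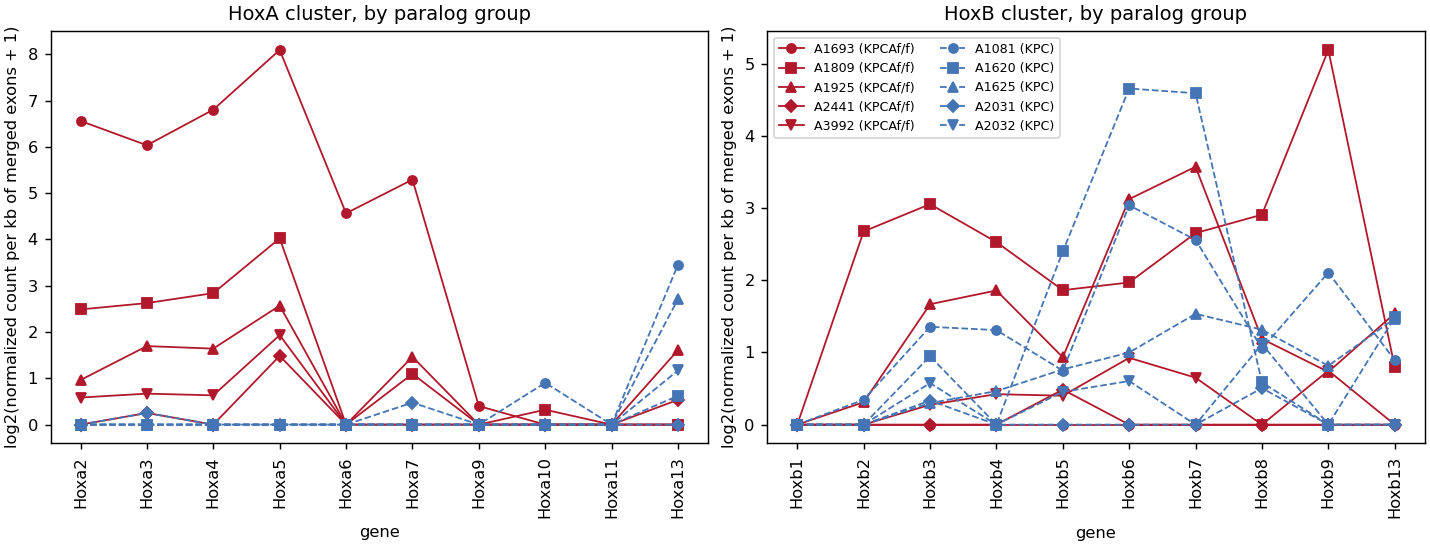
The y axis is log2(normalized count per kb of merged exons + 1) along the HoxA (left) and HoxB (right) genes, with 1 line of symbols per cell line (KPCAf/f solid red, KPC dashed blue). In HoxA, A1693 lies above all other lines from Hoxa2 to Hoxa7 (272 per kb at Hoxa5) and Hoxa13 is highest in A1081; in HoxB, A1809 peaks at Hoxb9 and A1620 at Hoxb6 and Hoxb7.

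The HoxB cluster spans chromosome 11 from 96194316 to 96368256 on the plus strand, and different lines used different stretches of it. In A1809, 5 HoxB genes reached 10, including the neighbours Hoxb2 to Hoxb4. Hoxb5 to Hoxb7 reached 10 in KPC line A1620, and Hoxb6 and Hoxb7 in A1925. Summed over the cluster, HoxB was at 0 in A1693, 194 in A1809, 60.7 in A1925, 1.12 in A2441 and 7.05 in A3992, against 48.3 in A1081, 105 in A1620, 18.6 in A1625, 2.24 in A2031 and 7.22 in A2032. The genotypes overlapped, and A1693 was the sole line with no HoxB read.

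Hoxb9, a gene of the thoracic region, had 91.7 normalized counts in A1809, 1.76 in A3992, 1.69 in A1925 and 0 in A1693 and A2441, against 8.52 in A1081, 1.96 in A1625 and 0 in A1620, A2031 and A2032. A1809 alone was high. Its log2 difference of 0.92 did not pass (exact permutation p = 0.722, n = 5 lines each), and without A1809 it was -0.24. Hoxb2, a hindbrain gene, had 18.8 in A1809, 0.843 in A1925 and 0 in the other KPCAf/f lines, against 0.947 in A1081 and 0 in the other KPC lines (log2 difference 0.85, exact permutation p = 0.722). The ratio of its reads was 20.3, with a 95% counting interval of 3.32 to 837. Again 1 line carried them: without A1809 there was 1 read in the KPCAf/f lines and 1 in the KPC lines.

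Hoxb4, known for its role in blood stem cells, had 12.3 normalized counts in A1809, 6.74 in A1925, 0.881 in A3992 and 0 in A1693 and A2441, against 3.79 in A1081, 0.978 in A1625 and 0 in A1620, A2031 and A2032. The ranges overlapped (log2 difference 0.87, exact permutation p = 0.405, n = 5 lines each). Hoxb6, a gene of the trunk, had 15.2 in A1925, 5.73 in A1809, 1.76 in A3992 and 0 in A1693 and A2441, against 47.7 in A1620, 14.2 in A1081, 1.96 in A1625, 1.03 in A2032 and 0 in A2031. Its highest line was A1620. The log2 difference was -0.78 (exact permutation p = 0.595) and 0.02 without A1620.

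The other HoxB genes were chosen for mention after their values were seen. Hoxb7 followed Hoxb6, at 16.9 in A1925 and at most 8.18 in the other KPCAf/f lines, against 35.8 in A1620 and at most 7.57 in the other KPC lines. Hoxb3 peaked at 31.1 and Hoxb8 at 17.2, both in A1809, while Hoxb5 peaked at 11.9 in A1620. The limma adjusted p was 0.979 for Hoxb3, 0.921 for Hoxb5, 0.880 for Hoxb7 and 0.809 for Hoxb8. Hoxb13, known from the prostate and tail, stayed at or under 4.22 in every line. HOX transcripts are short, with a median of 2472 merged exon bases against 4335 over the 13089 genes of the main fit, and A1620 is the line whose short genes read high. Its part in the Hoxb5, Hoxb6 and Hoxb7 values was not tested.

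HoxC (chromosome 15, 102921103 to 103036852) gave 62 reads in all lines together. Hoxc6, a gene of the thoracic region, was the 1 member to reach 10, with 12.6 normalized counts in A1925, 1.12 in A2441 and 0 in A1693, A1809 and A3992, against 1.89 in A1081, 2.06 in A2032, 0.978 in A1625 and 0 in A1620 and A2031. A1925 alone was high, and the ranges overlapped (log2 difference 0.15, exact permutation p = 0.921, n = 5 lines each). Its sign turned under quantile scaling (-0.23).

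The other HoxC genes named here were all below 10. Hoxc4 peaked at 5.73 and Hoxc5 at 4.91, both in A1809. Hoxc4 also had 1.76 in A3992 and 0.843 in A1925, against 1.32 in A1620, with 0 in every other line; Hoxc5 had 1.69 in A1925, against 1.03 in A2032, and 0 in the rest. Hoxc9 had 5.90 in A1925 and 0 in the other KPCAf/f lines, against 3.97 in A1620, 1.03 in A2032, 0.947 in A1081 and 0 in A1625 and A2031. Each of these overlapped between genotypes. Hoxc10 had 1 read each in A1925 and A2441. The log2 differences were 0.78 for Hoxc4, 0.59 for Hoxc5, -0.30 for Hoxc9 and 0.39 for Hoxc10 (exact permutation p = 0.286, 0.444, 0.683 and 0.444 in that order, n = 5 lines each). Hoxc5 overlaps Hoxc6, Hoxc8, Hoxc9 and Hoxc10 in the annotation, so its few reads are uncertain. Hoxc8 and Hoxc13, chosen afterwards, stayed at or under 1.69.

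HoxD (chromosome 2, 74668310 to 74765142) gave 19 reads, and every one was in a KPCAf/f line. Hoxd8, an early trunk gene, had 11.5 normalized counts in A1809, 0.843 in A1925, 0.881 in A3992 and 0 in A1693 and A2441, against 0 reads in all KPC lines. A1809 alone was high, and A1693 and A2441 tied with KPC. Against the floor of 3 reads over the KPC group it was at least 4.13-fold higher in KPCAf/f lines, with a log2 difference of 1.09 (exact permutation p = 0.167, n = 5 lines each). That bound rested on A1809: without it the KPCAf/f lines held 2 reads, under the floor, and the log2 difference was 0.45. Hoxd4 and Hoxd9 had 1 read each in A1809, and Hoxd11 had 1 read in A1693; the exact permutation p was 1.0 for both Hoxd4 and Hoxd11.

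**Figure D3:**
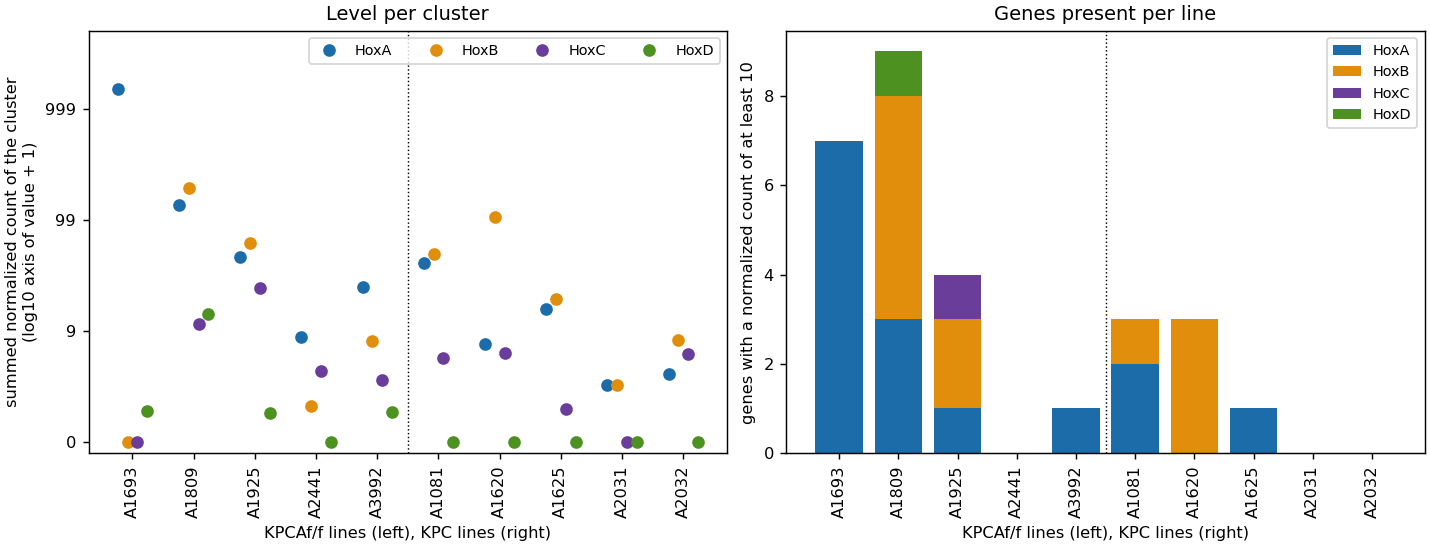
Left, the summed normalized count of each cluster per line (log10 axis of value + 1); right, the number of genes with at least 10 in each line, stacked by cluster (KPCAf/f lines left of the dotted line, KPC right). HoxA reaches 1521 in A1693 while its HoxB is at 0, A1809 holds the most genes (9), and A2441, A2031 and A2032 hold 0.

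Per line, the number of HOX genes at 10 or more was 7 in A1693, 9 in A1809, 4 in A1925, 0 in A2441 and 1 in A3992, against 3 in A1081, 3 in A1620, 1 in A1625 and 0 in A2031 and A2032. The median was 4 in KPCAf/f lines and 1 in KPC lines, or 2.5 in KPCAf/f lines without either A1693 or A1809 and 0.5 in KPC lines without either A1081 or A1620. Their summed level was 1521, 353, 131, 12.4 and 34.4 in the same KPCAf/f lines, against 92.8, 117, 34.2, 4.5 and 15.5 in the KPC lines. A2441 lay below 4 KPC lines, so the genotypes overlapped. A1809 and A1925 had reads in 21 and 23 HOX genes, the broadest of the lines, and A2031 in 4. By paralog group, 5 of 8 genes of groups 1 to 3, 11 of 15 of groups 4 to 8 and 2 of 16 of groups 9 to 13 reached 10. Groups 9 to 13 also held 6 of the 9 genes with 0 reads.

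No HOX gene passed the main filter of at least 10 in 5 or more lines, so none entered that fit, in which 229 of 13089 genes (1.75%) were called. In the limma fit over the 16150 genes with at least 10 in any line, 0 of the 18 HOX genes had an adjusted p under 0.05, against a background of 2.07%. At an unadjusted p under 0.05 there were 5 of 18 (27.8%), each higher in KPCAf/f lines, against 15.9% of all genes in either direction and 10.2% in that one. Of the 18 genes, 13 reached 10 in KPCAf/f lines alone, so the filter favours that direction and the shares over all genes are not a like background. Among the 5 were the neighbours Hoxa2 to Hoxa5, which are highest in the same line and so are not independent of each other. The share of 27.8% rested in part on A1693. With that line left out of the fit, the HOX genes still past the unadjusted cut were Hoxa3, Hoxa4 and Hoxa5. Their log2 differences were then 2.82, 1.62 and 3.26 in that order. Hoxa2 (1.38) no longer passed it. The share of all genes past the cut without A1693 was not counted. On the recovered reads, edgeR called 0 of 18 (7 at an unadjusted p under 0.05) and limma-voom 0 (3). DESeq2 called 0 (1 at an unadjusted p under 0.05). It gave 8 of the 18 genes no p at all, Hoxa3 and Hoxa5 among them, so it could not call these. The backgrounds of calls were 1.57% for edgeR, 0.693% for limma-voom and 6.98% for DESeq2, and those at an unadjusted p under 0.05 were 17.3%, 14.9% and 18.8% in that order.

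The genotypes did not overlap for 2 of the 18 genes (11.1%), Hoxa3 and Hoxa5, against 4.82% of all 16150 genes in either direction and 3.32% higher in KPCAf/f. By reads, 1 did not overlap, Hoxa5, and without A2441 the number by normalized value was 4. The mean log2 level was higher in KPCAf/f lines for 13 of 18 (72.2%), against 52.0% of all genes, with a median difference of 0.87 against 0.03. Of the 18, 13 reached 10 in KPCAf/f lines alone, so the filter itself favours this direction. Of all genes that reached 10 somewhere, 81.0% did so in 5 or more lines, so the shares over all genes are not a like background. By cluster, HoxA was higher for 7 of 8 genes (median 2.69) and HoxB for 4 of 8 (median -0.06). Without A1693, the highest line for most HoxA genes, HoxA was higher for 6 of 8 with a median of 1.5, and without A1693 and A1809 the median was 0.90. Without A1809 the median over the 18 genes was 0.35, with 11 higher, and that of HoxB was -0.66, with 2 of 8 higher. Without A1620, HoxB was higher for 7 of 8 (median 0.37). Exact permutation p-values were computed for 15 HOX genes, chosen by the same values, and are not adjusted.

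**Figure D4:**
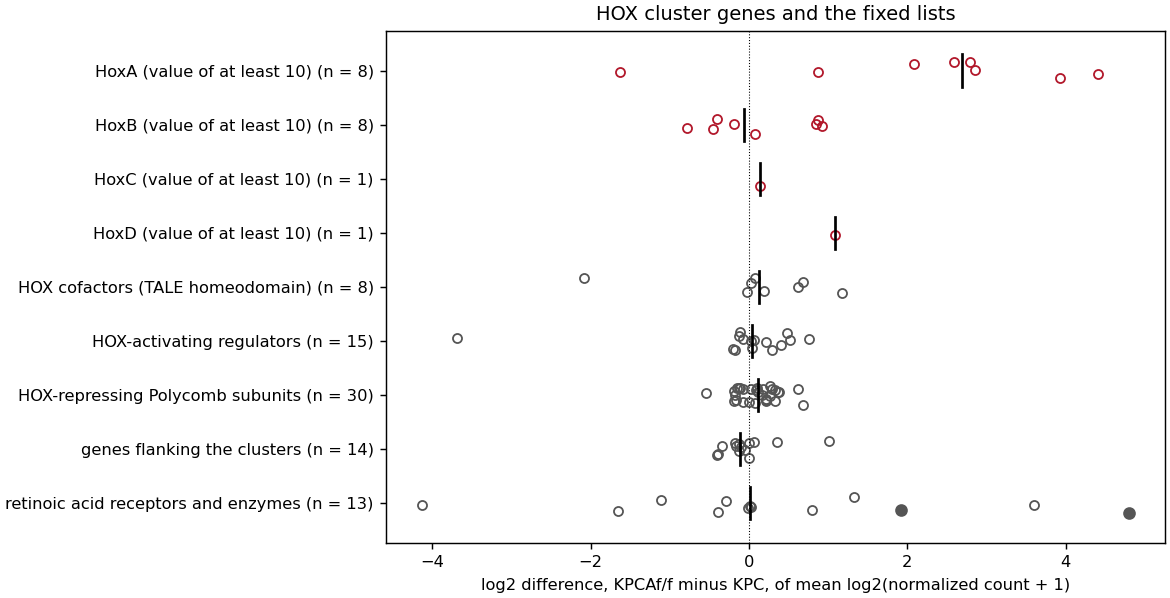
Each circle is a gene's log2 difference, KPCAf/f minus KPC, with the median of each row as a bar; HOX genes with at least 10 in any line are red, genes of the related lists grey, and filled circles passed limma at an adjusted p under 0.05. The HoxA row has a median of 2.69 and the HoxB row -0.06, while the regulator lists lie near 0 and 2 retinoic acid genes, Rarg and Crabp2, are filled.

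Other transcripts within the HoxA cluster reached 10 too, 7 of 20 annotated. Of the 16 noncoding RNAs listed by name for the 4 clusters, 3 reached 10 and all were antisense to HoxA genes. Hotairm1 had 42.3 normalized counts in A1693, 16.4 in A1809, 6.74 in A1925, 1.12 in A2441 and 0 in A3992, against 10.6 in A1620, 1.89 in A1081 and 0 in the other KPC lines. Hoxaas2 had 47.7, 5.73 and 2.53 in A1693, A1809 and A1925, and Hoxaas3 had 20.7, 3.27, 2.53 and 1.76 in A1693, A1809, A1925 and A3992, against 0 in every KPC line for both. The highest line was A1693 for these 3, as for Hoxa2 to Hoxa7. The other 4 HoxA transcripts at 10, looked up after their values were seen, were the antisense RNA Gm15050, the protein-coding 5730596B20Rik, and Gm27861 and Gm27477. The last pair is annotated as miscellaneous RNA. Gm27861 lies within the annotated span of Hotairm1 on the same strand, so reads may be shared between them. Gm15050 had 30.3 in A1809, 25.2 in A1693, 3.37 in A1925, 1.76 in A3992 and 0 in A2441, against 7.57 in A1081, 6.62 in A1620, 1.12 in A2031 and 0 in A1625 and A2032, and A1809 was its highest line. The highest value of the others was in A1693, at 19.8 for 5730596B20Rik and 12.6 for both Gm27861 and Gm27477. None of the 3 RNAs listed by name passed limma over the 16150 genes (adjusted p = 0.465 for Hotairm1, 0.331 for Hoxaas2 and 0.217 for Hoxaas3). No source used here gives the strand setting of the counting, so antisense reads may come from the HOX gene on the other strand. The single HoxB transcript to reach 10 outside the HOX genes was the pseudogene Gm11539, and HoxC and HoxD had 0.

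Among genes that act with or upon the clusters, none of the tested cofactors, chromatin regulators or flanking genes passed limma. DESeq2 called 4 genes higher and 1 lower over all lists together, against 521 and 210 over all 13089 genes. The share of all 13089 tested genes at an unadjusted p under 0.05 in limma was not counted. The unadjusted counts of the lists, here and below, thus have no background from their own fit. In the limma fit over the 16150 genes that share was 15.9%. Of 8 tested PBX, MEIS and PKNOX cofactors 0 passed (2 at an unadjusted p under 0.05, median log2 difference 0.13), and the smallest p values were those of Pbx2 and Pbx4. Pbx2 was at 868 ± 34.6 in KPCAf/f lines and 566 ± 59.1 in KPC lines (log2 difference 0.62, limma adjusted p = 0.0899), and Pbx4 at 10.8 ± 11 in KPCAf/f lines and 54.5 ± 48.2 in KPC lines (limma adjusted p = 0.233; SD, n = 5 each). Of 15 tested activating regulators 0 passed (1 at an unadjusted p under 0.05, median 0.04). Cdx2, an intestinal homeobox factor that activates HOX genes, was at 167 ± 220 in KPCAf/f lines, with 0 in A1693, and 692 ± 345 in KPC lines (log2 difference -3.69, limma adjusted p = 0.248). Kdm6a, a demethylase that opposes Polycomb, differed by 0.76 (limma adjusted p = 0.472). It had 185 normalized counts in A1620, against 910 to 1251 in the other KPC lines.

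Of 30 tested Polycomb subunits 0 passed limma (3 at an unadjusted p under 0.05, median log2 difference 0.11). Ezh2, the main methyltransferase, was at 2146 ± 496 in KPCAf/f lines and 3078 ± 481 in KPC lines (log2 difference -0.54, limma adjusted p = 0.256), and Kdm2b, which recruits Polycomb to CpG-rich DNA, at 555 ± 97.8 in KPCAf/f lines and 368 ± 109 in KPC lines (0.62, limma adjusted p = 0.281). Of the Evx and ParaHox relatives, 1 of 5 was tested: Pdx1 (log2 difference -1.71, limma adjusted p = 0.590), at 2.70 in A1693 and 594 to 1679 in the other 9 lines. Of 14 tested genes flanking the clusters 0 passed (1 at an unadjusted p under 0.05, median -0.11), and the smallest p values were those of Calcoco1 (1.01, limma adjusted p = 0.162) and Copz1 (-0.39, limma adjusted p = 0.386). Next to HoxA, Skap2, looked up afterwards, had 1479 in A1693 and 451 to 838 in the other lines.

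The retinoic acid list was the 1 with genes past the test, 2 of 13 tested, against 1.75% of all 13089 tested genes. Both were higher in KPCAf/f lines, with a median of 0.01 over the list. The receptor Rarg had 3253 normalized counts in A1693, 1895 in A1809, 3361 in A1925, 4487 in A2441 and 1939 in A3992, against 726 in A1081, 592 in A1620, 717 in A1625, 704 in A2031 and 1081.5 in A2032. Every KPCAf/f line lay above every KPC line (log2 difference 1.92, SE 0.27, limma adjusted p = 0.0039). Crabp2, a retinoic acid carrier, was at 368 ± 565 in KPCAf/f lines and 6.71 ± 5.95 in KPC lines (SD, n = 5 each; log2 difference 4.80, SE 0.88, limma adjusted p = 0.0187). A2441, which had 11 HOX reads, was the highest line for both genes. Crabp1, the related carrier, entered only the fit over the 16150 genes and passed there too (log2 difference 7.53, limma adjusted p = 0.0413). It had 6814 normalized counts in A1693, 2.46 in A1809, 2564 in A1925, 184 in A2441 and 725 in A3992, against 0.95 in A1081, 0 in A1620, 0.98 in A1625, 2.24 in A2031 and 2.06 in A2032. Its highest line was A1693, and every KPCAf/f line lay above every KPC line. A1809 (2.46) was only just above A2031 (2.24), where 1 read is worth about 1 normalized count.

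Promoter windows of 300 bases, 250 before to 50 after the start, were found in RefSeq for 22 of the 39 HOX genes (24 windows). With more than 50% G and C and an observed-to-expected CpG ratio over 0.6, 11 of 24 (45.8%) counted as CpG-rich, against 33.3% of 32851 windows of all genes. The median number of CpG dinucleotides was 14.5 against 7. On both strands, TGATTNAT, a PBX-HOX motif, was in 2 of 24 (8.3%), Hoxa2 and Hoxd11, against 3.2% of all windows, and TGACAG, a MEIS motif, was in 2 (8.3%), Hoxa2 and Hoxa3, against 19.2%. TTTATNG, a CDX and posterior HOX motif, was in 2 (8.3%), Hoxd4 and Hoxb8, against 10.9%, and TATAAA in 4 (16.7%) against 13.6%. In the Hoxa2 sequence shown above, the MEIS motif reads tgacag near the start site.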

How the data were processed

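The authors' deposited table holds a signal that is never negative, counts per gene scaled by DESeq2 size factors, with a column for each line. The submitters' processing notes list DESeq2 1.14.1 (R 3.3.2), featureCounts from Subread 1.5.0p3, STAR 2.5.2b, Trimmomatic 0.36 and bcl2fastq 1.8.4, and name mm9 and GRCm38.p5 without saying which served for what. Per the labels' protocols the libraries were stranded mRNA libraries. The counting annotation and its strand option were not given in the sources used here. Whole reads were recovered within 0.001 read for 100.0% of values, with size factors of 0.7549 to 1.2218.

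limma 3.58.1 (R 4.3.3) with an intensity trend was run on log2(normalized count + 1), a scale that understates the change of low genes, two-sided, adjusted by Benjamini-Hochberg over 13089 genes at 10 or more in at least 5 of 10 lines. No HOX gene passed that filter, so 15 named members were compared by two-sided exact permutation over all splits of the lines and, as an alternative, by limma over 16150 genes at 10 or more in any line. edgeR 4.0.16, DESeq2 1.42.0 and limma-voom were run on the recovered reads. The limma step was tested on simulated data. Named members are the 3 largest log2 differences and 2 highest means of each cluster, non-overlapping members that reach 10, and called ones; list genes are those called, or else the 2 of smallest p. 1 member counts in the totals but is not reported here by itself. Members and lists were chosen with earlier results of these data known. Log2 differences are KPCAf/f minus KPC. Folds against 0 reads are bounds against 3 reads over the group, and intervals (95%, exact Poisson) cover counting error only. Positions and exon lengths are from GENCODE M21; promoters are RefSeq's. Other settings were 2 pseudocounts, other filters and levels, quantile scaling, array weights, and lines left out. Figures were drawn with matplotlib 3.10.9.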

Additional observations from a re-analysis of the deposited data

Results flagged for a closer look

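Dixon's criterion for 5 values, a gap above 0.71 of the range on the log2(normalized count + 1) scale, was applied to 51 groups of a gene in a genotype that reached 10. It set 1 line apart in 9 of them. The criterion sets apart about 5% of groups of normal values by chance, a share that does not apply to groups that reached 10 only through the line set apart, as the 5 HOX groups and Pbx4 below did. In the KPCAf/f lines 5 of these were HOX genes: Hoxa6 in A1693 (19.81 normalized counts), Hoxb2 (18.82), Hoxb9 (91.67) and Hoxd8 (11.46) in A1809, and Hoxc6 in A1925 (12.65). Each was a high value in 1 line. Among the related genes, Pbx4 was high in A1809 (30.28) and Pdx1 low in A1693 (2.70), both KPCAf/f lines, while Kdm6a was low in A1620 (185.45) and Ezh2 low in A2032 (2238.24), both KPC lines. The 51 groups did not hold every gene of the related lists, so further lines set apart may be missing here. Rybp (66.2), Kat6a (519), Kmt2a (298) and Suz12 (833) were also at their lowest of the KPC lines in A1620. Others, such as Pcgf1 (338) and Ring1 (409), were at their highest there. The causes were not tested.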

How the results depend on the processing

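With 5 lines per genotype and 1 read worth about 1 normalized count, depth limits every value under 10, and 1 line can set a median or a count. No paired analysis was possible because the replicate numbers only follow the order of the records and pair no lines. The cause of each change below was not tested.

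The 18 HOX genes at 10 or more in any line became 11 at a level of 20, 7 without A1693 and A1809, and 12 to 18 with each line left out. The median per KPCAf/f line, 4, became 7 at a level of 5, 0 at a level of 20, 2.5 without A1620 and A1693, 1 without A1693 and A1809, and 2.5 to 5.5 with each line left out. The median per KPC line, 1, became 0 at a level of 20, 0.5 without A1620 and A1693, and 0.5 to 2 with each line left out. Non-overlapping HOX genes, 2, became 1 under quantile scaling, without A1693 and A1809 and by recovered reads, and 2 to 4 with each line left out. No HOX gene passed the filter of the fit over 13089 genes, nor of 20 alternatives to it, so these could call none. HOX genes entered 15 other fits: with no filter, with 10 or more in any line (limma, edgeR, DESeq2 and limma-voom), and that limma fit with each line left out. DESeq2 gave no p for 8 of the 18 genes, Hoxa3 and Hoxa5 among them. Of the 15 fits, 1 called a HOX gene, Hoxa5 without A1693, for a range of 0 to 1 called higher. None called one lower.

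Over the whole table, 178 genes were called higher and 51 lower. These became 271 higher with at least 10 in any line, 109 and 22 with a mean of at least 100, 521 and 210 with DESeq2, 76 and 29 with limma-voom, 403 and 183 with array weights, 27 lower with edgeR, and 122 to 227 higher and 24 to 91 lower with each line left out. List genes called higher, 2, became 4 with DESeq2, 1 with limma-voom, 4 with array weights and 1 to 2 with each line left out; those called lower, 0, became 1 with DESeq2.

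The HoxB median of -0.06 turned to 0.74 without A1620 and A1693, and was -0.66 to 0.37 with each line left out. Signs turned for 4 named HOX genes, none past the test: Hoxb6 to 0.43 without A1620 and A1693 (-1.38 to 0.02 with each line left out), Hoxb9 (-0.24 to 1.49 with each line left out), Hoxc6 to -0.23 under quantile scaling and -0.21 with limma-voom (-0.55 to 0.39), and Hoxc9 to 0.20 without A1620 and A1693 and 0.07 without A1693 and A1809 (-0.86 to 0.06). Hoxa3 and Hoxa5 kept an exact permutation p under 0.05 in each setting that gave one, but both were chosen by the same values, so this is no independent support. The 4 settings of 20 without a p under 0.05 were limma with no filter or with 10 or more in any line, edgeR and limma-voom. These 4 gave p adjusted over all genes, 0.0584 to 0.234 for Hoxa3 and 0.073 to 0.159 for Hoxa5, with differences no smaller. For Hoxd8 the exact permutation p became 0.0476 without A1693 and without A2441 (log2 difference 1.36 in each). Array weights, the mean filter and count tests under the main filter gave no value for HOX genes.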
